A study of Mus musculus with 108 samples.

Results

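Reporter fragments that were active in early hemogenic endothelium (HE1) were compared with those active in late hemogenic endothelium (HE2). Both stages came from 1 culture system of HM-1 mouse embryonic stem cells. Fragments of open chromatin, cut out by the Tn5 transposase at 5 stages of blood specification, had been cloned in front of the HSP68 minimal promoter and a gene for the yellow fluorescent protein Venus (YFP). The reporters had been placed by recombination at the Hprt locus of these cells, so that every fragment was read at the same position. FLK1-positive cells were then grown in blast culture with VEGF, IL-6 and conditioned medium, and HE1 was sorted as KIT+ TIE2+ CD41-, HE2 as KIT+ TIE2+ CD41+. Cells of either stage were split by YFP: replicates 1 to 4 gave Negative, Low, Medium and High cells, and replicate 5 gave Negative, Low and Medium/High cells. The 28 YFP-positive libraries of both stages (14 each, of 108 samples and 95 sorted libraries in the series) were united per stage and replicate into 5 HE1 and 5 HE2 positive sets. The 5 Negative libraries of each stage served as the background measured the same way. The labels do not say that replicates were separate cultures, so p-values measure only the spread between these sets.

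Hemogenic endothelium is the endothelium that gives rise to blood. The surface integrin CD41 appears as the cells begin to leave the endothelial programme, a step that needs the transcription factor RUNX1. RUNX1 then acts with factors such as PU.1, GATA2 and TAL1, many of whose target elements lie far from promoters.

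A fragment was counted once per set, since the lists hold intervals without read counts. A value is therefore a number of different fragments over a gene or site, not a strength of reporter activity, and the read depth behind it is unknown. A locus is a protein-coding gene with the distal fragments nearest to its transcription start and within 100 kb, and a promoter is a gene with the promoter fragments within 2 kb. A site is a run of overlapping distal fragments, of which there were 40258 in all 20 sets.

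These sequences belong to sites that carried the comparison. For each, the 200 bp with the most positive fragments are given on the plus strand of mm10 (RefSeq sequence of GRCm38), with matches to any of the 13 searched motifs in capitals. The first 3 were listed in HE2 positive sets and in no HE1 positive set: an intron of Pitpnm2, an intergenic site near Slc30a8 and an intergenic site near Gm11444. The next 3 were listed in HE1 positive sets and in no HE2 positive set: an intergenic site near Vav1, an intron of Mgat5b and an intergenic site near Slc44a3. The last pair are the most listed sites of the Runx1 and Smad6 loci, 57.9 and 23.3 kb from the start of the gene.
Pitpnm2 site, HE2 only, chr5:124206858-124207057: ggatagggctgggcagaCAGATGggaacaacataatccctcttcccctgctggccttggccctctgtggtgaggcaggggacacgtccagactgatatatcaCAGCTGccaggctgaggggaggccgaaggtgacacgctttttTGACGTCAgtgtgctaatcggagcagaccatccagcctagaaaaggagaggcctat
Slc30a8 site, HE2 only, chr15:52279736-52279935: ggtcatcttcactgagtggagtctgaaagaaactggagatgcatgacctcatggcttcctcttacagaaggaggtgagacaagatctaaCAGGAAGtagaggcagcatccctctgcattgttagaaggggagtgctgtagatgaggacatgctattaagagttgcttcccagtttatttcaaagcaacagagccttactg
Gm11444 site, HE2 only, chr11:85843543-85843742: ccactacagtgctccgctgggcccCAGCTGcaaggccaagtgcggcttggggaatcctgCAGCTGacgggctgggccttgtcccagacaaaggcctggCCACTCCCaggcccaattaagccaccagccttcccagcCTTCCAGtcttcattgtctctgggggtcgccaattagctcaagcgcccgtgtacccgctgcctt
Vav1 site, HE1 only, chr17:57275411-57275610: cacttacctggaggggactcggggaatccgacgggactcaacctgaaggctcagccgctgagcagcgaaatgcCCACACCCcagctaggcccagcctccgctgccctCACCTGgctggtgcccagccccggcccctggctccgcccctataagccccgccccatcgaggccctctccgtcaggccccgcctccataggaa
Mgat5b site, HE1 only, chr11:116940517-116940716: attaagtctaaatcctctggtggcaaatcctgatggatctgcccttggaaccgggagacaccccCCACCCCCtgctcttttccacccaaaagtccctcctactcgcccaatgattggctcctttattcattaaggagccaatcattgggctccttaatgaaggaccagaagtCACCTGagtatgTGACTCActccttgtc
Slc44a3 site, HE1 only, chr3:121558956-121559155: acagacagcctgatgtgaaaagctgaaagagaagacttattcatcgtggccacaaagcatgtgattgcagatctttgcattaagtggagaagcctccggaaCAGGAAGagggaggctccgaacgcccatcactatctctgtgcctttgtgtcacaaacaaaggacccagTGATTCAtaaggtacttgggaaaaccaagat
Runx1 site, both stages, chr16:92883956-92884155: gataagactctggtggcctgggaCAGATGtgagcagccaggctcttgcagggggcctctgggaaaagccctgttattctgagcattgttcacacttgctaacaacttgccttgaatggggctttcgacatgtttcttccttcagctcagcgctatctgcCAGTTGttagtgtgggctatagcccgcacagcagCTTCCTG
Smad6 site, both stages, chr9:64045252-64045451: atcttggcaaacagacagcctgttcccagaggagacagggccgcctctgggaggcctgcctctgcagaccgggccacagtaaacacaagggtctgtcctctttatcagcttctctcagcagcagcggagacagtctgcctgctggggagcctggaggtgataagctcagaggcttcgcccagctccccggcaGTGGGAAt

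The capitals mark E-box (CAGNTG) and CRE (TGACGTCA) matches in the Pitpnm2 site, an ETS match (CNGGAAG) in the Slc30a8 site, and ETS, E-box and KLF (GGGNGTGG) matches in the Gm11444 site. In the Vav1 site they mark E-box and KLF, in the Mgat5b site AP-1 (TGANTCA), E-box and KLF, and in the Slc44a3 site AP-1 and ETS. The Runx1 site held ETS and E-box matches and the Smad6 site 1 RBPJ match (GTGGGAA). Motifs were searched on both strands, N standing for any base. Such matches are common: of 30242 windows of 200 bp taken in the same way, 47.4% held an E-box, 30.4% ETS, 13.7% AP-1, 13.6% the motif of GATA factors (searched as AGATAA), 8.53% KLF, 5.43% RBPJ and 0.509% CRE. The RUNX motif (TGTGGTT) was found in 5.78% of the windows and in none of these 8.

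The positive sets differed 148-fold in size. HE1 sets held 229660, 197137, 3865, 13261 and 2655 fragments and HE2 sets 202971, 129620, 16669, 2443 and 1552. Replicates 1 and 2 supplied 95.6% of the listed HE1 fragments and 94.2% of those of HE2. One fragment was worth 0.0435 per 10000 in the largest set and 6.44 in the smallest, so a gene missing from replicates 3 to 5 was often below what those sets could show. Negative sets held 131036, 40619, 6844, 1651 and 1169 fragments in HE1 and 35049, 37101, 720, 1528 and 1111 in HE2.

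Some libraries shared a large part of the smaller list with a library of another gate or stage. The Low library of HE1 replicate 4 shared 83.0% of the smaller list with HE1 Negative replicate 3, and the Medium library of replicate 2 shared 78.5% with HE1 Negative replicate 1. HE1 Low replicate 4 also shared 55.3% and 52.0% with the Medium and Low libraries of HE2 replicate 4. Lists of Negative cells, the background here, were shared across the stages too, at 47.9% of the smaller list in replicate 4 and 46.9% in replicate 3, and HE2 Low replicate 4 shared 48.8% with HE2 Negative replicate 4. In addition only 28.7% of the fragments of the HE1 replicate 4 positive set were identical to a cloned plasmid fragment, against 59.5% to 86.0% in the other HE1 sets and 72.7% to 84.1% in HE2. The median length of distal fragments was 307 bp in that set and 343 bp in HE1 Negative replicate 3, and lay between 166 and 237 bp in the others.

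**Figure D1:**
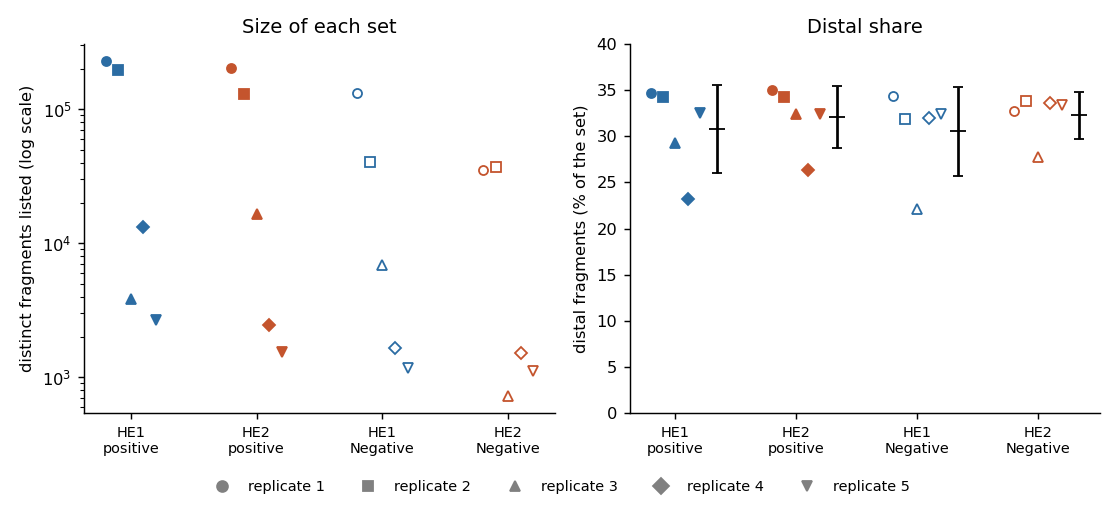
Left, number of distinct fragments in each of the 20 sets (log axis); right, percent of these that were distal, by stage and by positive (filled) or Negative (open) cells, with the mean and SD over 5 replicates as bars. Sizes are far smaller in replicates 3 to 5 than in replicates 1 and 2, while the distal share stays between 22.1% and 35.0%.

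The yield of positive fragments did not separate the stages. Distal fragments made up 34.7%, 34.3%, 29.3%, 23.2% and 32.5% of the HE1 sets (mean 30.8% ± 4.76, SD, n = 5) and 35.0%, 34.3%, 32.4%, 26.4% and 32.4% of the HE2 sets (32.1% ± 3.39). The difference of 1.29 percentage points was within the spread of the sets (exact two-sided permutation test over 252 splits, p = 0.619). HE1 replicate 4 decided its sign, and without that set the difference was -0.614 points. In Negative cells the shares were 30.5% ± 4.82 and 32.3% ± 2.55 (exact p = 0.524), and the stage difference did not differ detectably between positive and Negative cells (exact p = 0.889).

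At equal fragment numbers the sets also reached similar numbers of elements. A draw of 503 distal fragments was expected to hit 494, 493, 479, 444 and 485 sites in HE1 and 493, 493, 490, 445 and 484 in HE2 (exact p = 0.722). It was expected to reach 413 ± 13.2 gene loci in HE1 and 419 ± 10.9 in HE2 (SD, n = 5, exact p = 0.484). A draw of 1049 promoter fragments was expected to reach 934 ± 32.1 promoters in HE1 and 933 ± 39.5 in HE2 (exact p = 0.992). In each stage replicate 4 gave the fewest sites, loci and promoters. The smallest p that 5 sets against 5 can give is 0.00794.

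The Negative lists gave the same order of values at the number of the smallest of the 20 sets, 200 distal and 520 promoter fragments. Positive cells were expected to reach 196 sites in both stages, against 191 ± 9.44 in HE1 Negative and 192 ± 7.71 in HE2 Negative cells (SD, n = 5). They reached 172 and 174 loci, against 169 ± 5.16 and 172 ± 5.93. For promoters the values were 485 and 484 in positive and 477 ± 20.3 and 470 ± 27.6 in Negative cells. The stage difference was not shown to differ between positive and Negative cells for sites, loci or promoters (exact p = 0.857, 0.881 and 0.675).

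**Figure D2:**
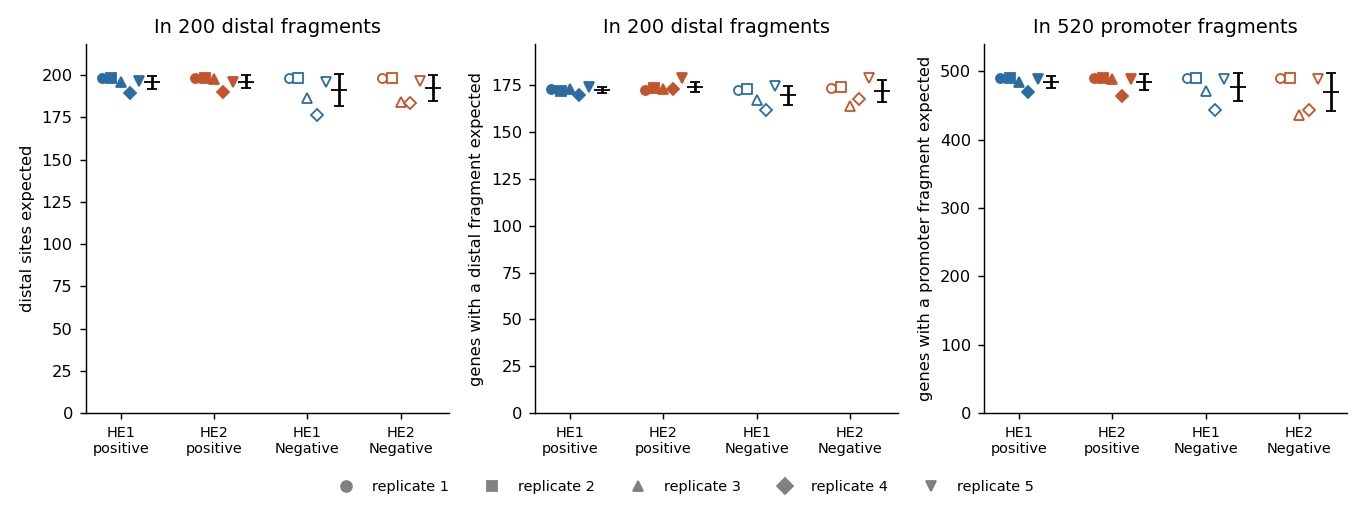
Expected number of distal sites (left) and gene loci (middle) in 200 distal fragments and of promoters in 520 promoter fragments (right), for each set of HE1 and HE2 positive (filled) and Negative (open) cells, with the mean and SD over 5 replicates as bars. The positive sets of both stages lie between 189 and 199 sites and between 464 and 491 promoters, and replicates 3 and 4 are the low ones among the Negative sets.

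No distal locus passed the test between the stages. Limma on log2 of fragments per 10000 with 1 added called 0 of 7219 loci (0.0%) at an adjusted p of 0.05, with 39 at an unadjusted p under 0.05, and 0 of 12252 sites (0.0%, 16 unadjusted). Fits weighted for set size (voom) called 0 loci and 0 sites too, with 153 and 300 unadjusted. In Negative cells limma called 0 of 2868 loci (0.0%, 1 unadjusted) and 0 of 2501 sites (0.0%, 0 unadjusted). A test of whether the stage difference itself differed between positive and Negative cells, without a replicate term, called 0 of 8667 loci (0.0%, 25 unadjusted). All these unadjusted counts lay below a share of 0.05 of the features tested, the share that would be reached if none differed. The fits were thus conservative, and 0 calls do not show that the stages are alike.

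Among signalling genes, the locus of Smad6, an inhibitor of BMP signalling, had the smallest p. It had 52, 46, 0, 6 and 0 fragments in HE1 and 79, 41, 6, 2 and 2 in HE2, or 2.26, 2.33, 0, 4.52 and 0 against 3.89, 3.16, 3.60, 8.19 and 12.9 per 10000. The stages overlapped through HE1 replicate 4. The fitted log2 difference, HE2 over HE1, was 1.53 (SE 0.52, limma adjusted p = 0.999), against -0.35 in Negative cells, and the difference between these also failed the test (limma adjusted p = 0.997). The locus of Socs3, which restrains cytokine signalling, had 78, 68, 0, 2 and 0 against 75, 41, 8, 1 and 1 fragments, and its log2 difference of 1.29 came from the small sets, since replicates 1 and 2 alone gave -0.00.

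The other loci with the smallest p had limma adjusted p of 0.999 as well. Sept9, a septin, had 98, 90, 0, 5 and 0 fragments in HE1 and 112, 57, 10, 1 and 1 in HE2 (log2 difference 1.21, limma adjusted p = 0.999). Bptf, a subunit of the nucleosome remodelling factor NURF, had 5, 7, 0, 0 and 0 against 15, 6, 0, 1 and 1. Sptbn1, which encodes a beta-spectrin, had 94, 99, 2, 6 and 1 against 81, 43, 6, 0 and 0 (log2 difference -1.13, limma adjusted p = 0.999). At Sept9 and Sptbn1 most of the fitted difference lay in sets of a few fragments. At Bptf the large sets differed too, with 0.218 and 0.355 per 10000 in HE1 against 0.739 and 0.463 in HE2. Gpatch1 had 6, 2, 1, 1 and 1 fragments in HE1 and 5, 0, 0, 0 and 0 in HE2 (log2 difference -1.01). Gapdh, the glycolytic enzyme, had 9, 7, 1, 0 and 1 fragments at 1 site over exons of Gapdh and Iffo1 in HE1 and none in HE2, and Mrpl38, of the mitochondrial ribosome, had 4, 6, 0, 3 and 1 and none.

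Loci of the genes that define the stages were listed at both. Runx1 had 25, 35, 1, 0 and 1 distal fragments in HE1 and 42, 21, 5, 1 and 1 in HE2 (log2 difference 0.72, SE 0.61, limma adjusted p = 0.999). Mecom, which encodes the transcription factor EVI1 of blood stem cells, had 31, 25, 0, 0 and 1 against 11, 13, 1, 0 and 1, and Spi1, which encodes PU.1, had 4, 2, 0, 0 and 1 against 4, 6, 0, 0 and 0. Over all 5 sets these values of both stages overlapped, in part through small sets with 0 or 1 fragment. Spi1 had no distal fragment in any Negative set of either stage, while Runx1 had 22, 12, 0, 0 and 1 in HE1 Negative and 2, 6, 0, 1 and 0 in HE2 Negative cells. The genes of the sort overlapped as well, with 29, 30, 0, 0 and 0 against 31, 22, 3, 0 and 0 at Kdr (FLK1), 5, 7, 0, 0 and 0 against 7, 8, 0, 0 and 0 at Tek (TIE2), and 5, 4, 0, 0 and 0 against 2, 5, 0, 0 and 0 at Kit. Itga2b, which encodes CD41, the marker that separates the stages, had 16, 15, 0, 0 and 0 distal fragments in HE1 and 13, 3, 1, 0 and 0 in HE2. The direction of the fitted difference turned in 8 of 17 alternatives at the Itga2b locus, 7 of 17 at Mecom, 6 of 13 at Kit and 4 of 17 at Spi1, and in none at Kdr and Tek.

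Promoters of the same genes were listed in numbers that also overlapped. The Runx1 promoter had 13, 14, 0, 1 and 0 fragments in HE1 and 10, 5, 1, 0 and 0 in HE2, and that of Itga2b 19, 26, 0, 2 and 1 against 21, 25, 2, 1 and 1. The Spi1 promoter had 3, 2, 0, 0 and 0 fragments in each stage. The direction of the fitted differences changed with the setting for 5 of these 7 promoters (Kdr in 6 of 17 alternatives), and none had a limma p under 0.05.

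Over all genes, limma called 0 of 11527 promoters (0.0%) between the positive sets, with 85 at an unadjusted p under 0.05, and voom called 0, with 116. In Negative cells it called 0 of 6957 (0.0%, 14 unadjusted), and 0 of 12368 (0.0%, 65 unadjusted) differed in their stage difference between positive and Negative cells. The unadjusted counts of promoters also lay below a share of 0.05, so the same limit holds for these 0 calls. The Ctc1 promoter, of a telomere-capping complex, had the smallest p among those lower in HE2. It had 32, 14, 0, 2 and 1 fragments in HE1 and none in the 5 HE2 sets (limma adjusted p = 0.999). The Mapk9 promoter, of the stress kinase JNK2, had 81, 93, 0, 0 and 0 against 57, 42, 7, 2 and 1 fragments. Its log2 difference of 1.56 turned to -0.34 in replicates 1 and 2 alone.

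Replicates 1 and 2 alone, with 2 large sets a stage, gave calls among promoters. Limma then called 10 of 12951 promoters (0.0772%, 1171 unadjusted), but 0 of 9960 loci (0.0%, 1310 unadjusted) and 0 of 26088 sites (0.0%, 5931 unadjusted). Of these promoters 3 were higher in HE2. The filter here was a fragment in 2 of the 4 sets, so that 6 of the 10, which had none in 1 stage, passed it only through the stage where they were high. Their values are given as a description, without their p. Mief2, which acts in mitochondrial fission, had no fragment in any HE1 set and 18, 16, 2, 0 and 0 in HE2. Cbx5, which encodes the heterochromatin protein HP1 alpha, had 4, 4, 0, 0 and 1 against 30, 15, 2, 0 and 1 (log2 difference 0.96, SE 0.15, adjusted p = 0.00382). Unc13d, needed for the release of granules by blood cells, had none against 9, 8, 1, 0 and 0.

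The other 7 promoters were lower in HE2. Of them 4 had no HE2 positive fragment: Ctc1, Nup88, a nucleoporin gene with 14, 15, 0, 0 and 0 fragments in HE1, Neurl4 with 14, 14, 0, 0 and 0, and Cdkn1a, of the cell-cycle inhibitor p21, with 12, 10, 0, 1 and 0. Efcab11 had 19, 10, 0, 0 and 0 against 1, 0, 0, 0 and 0. Sp4, a transcription factor that binds GC boxes, had 34, 28, 0, 3 and 0 against 6, 7, 1, 0 and 0 (log2 difference -0.79, SE 0.15, limma adjusted p = 0.0251), and Ppp2r3d, of a phosphatase 2A subunit, had 36, 40, 0, 2 and 0 against 13, 5, 3, 0 and 0 (-0.89, SE 0.15, limma adjusted p = 0.0134). The 10 were picked by their values in replicates 1 and 2, and none of them was called by limma with all 5 replicates. With voom and the replicate number as a block, Ctc1, which is at 0 in HE2, was called alone. The Medium library of HE1 replicate 2, which shares fragments with HE1 Negative replicate 1, is part of this comparison. Without it limma called 9 of the same 10 promoters and no other, and Unc13d was not called. The remaining libraries were the same, so this is no independent check. Promoters with no fragment in 1 stage again passed the filter only through the other. HE1 replicate 2 then held 8 fragments of Ctc1, 8 of Cdkn1a, 6 of Nup88, 6 of Neurl4, 8 of Efcab11, 16 of Sp4 and 16 of Ppp2r3d.

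**Figure D3:**
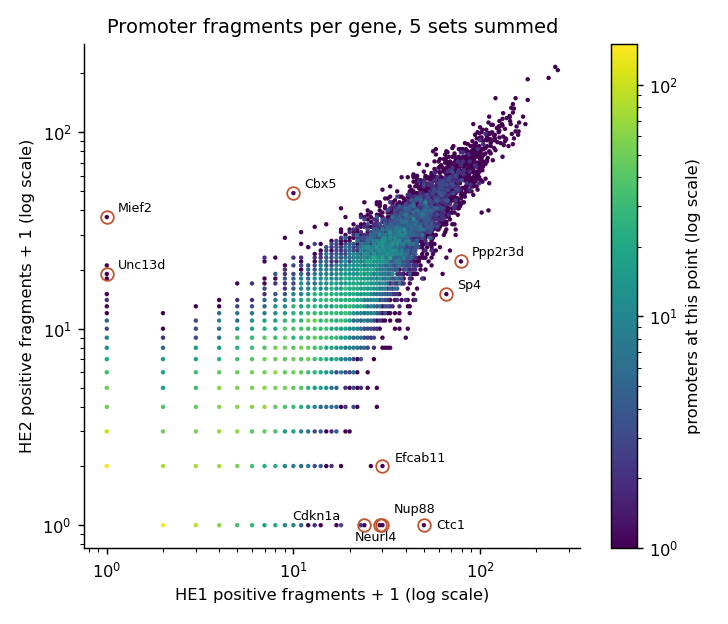
Fragments per promoter summed over the 5 HE1 (x axis) and 5 HE2 (y axis) positive sets, each with 1 added, on log axes, coloured by how many promoters lie at a point. Circles mark the 10 promoters called in replicates 1 and 2, of which Mief2 and Unc13d lie on the left edge (no HE1 fragment) and Ctc1, Nup88, Neurl4 and Cdkn1a on the lower edge (no HE2 fragment).

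Loci and promoters gained and lost were counted as those listed in positive sets of 1 stage and in no positive set of the other. At 1 set or more, 959 loci were found in HE2 only and 1083 in HE1 only. At 3 sets or more there were 40 and 34, at 4 or more 1 (Hddc2) and 5, and none was listed in all 5 sets. For promoters the counts were 440 and 437 at 1 set or more, 39 and 40 at 3 or more, and 1 (Rps6kl1) and 4 at 4 or more. For sites they were 8345 and 9997, 184 and 185, and 4 and 11. The sets behind these counts were not of equal size, with 446578 listed fragments in HE1 and 353255 in HE2. In Negative cells, where HE1 had 181319 fragments and HE2 75509, 779 loci were listed in HE2 only and 2638 in HE1 only, and 443 against 1852 promoters.

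The gained features listed in most HE2 sets had few fragments in each. Hddc2 had 4, 3, 1, 0 and 1 distal fragments in HE2, none in HE1 and none in any Negative set. The Ago1 locus, of an Argonaute protein, had 6, 4, 0, 1 and 0. The promoter of Rps6kl1 had 3, 2, 2, 1 and 0 fragments and that of Hoxc5, a homeobox gene, 3, 4, 0, 0 and 1. The Pitpnm2 and Slc30a8 sites printed above each had 4, 2, 1, 0 and 1. None of these gained features had more than 6 fragments in any set.

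The lost features listed in most HE1 sets included Gapdh, Mrpl38 and Mgat5b among loci and Ctc1 and Plekha4 among promoters. The loci of Cd37, a tetraspanin of white blood cells, and Erbb2, a growth factor receptor, each had 1, 1, 1, 1 and 0 fragments in HE1. The promoter of Hfe, a regulator of iron uptake, had 1, 3, 1, 2 and 0. The Vav1 site printed above had 14, 6, 0, 2 and 1 fragments in HE1 and none in HE2. It lies 3.65 kb from the start of Vav1, which encodes a signalling protein of blood cells.

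A stricter count took features with at least 10 positive fragments in 1 stage and none in the positive sets of the other. Of 4310 such loci in HE1, 17 (0.394%) had none in HE2, and of 3547 in HE2, 9 (0.254%) had none in HE1. For promoters the counts were 19 of 9079 (0.209%) and 14 of 7876 (0.178%), and for sites 76 of 3843 (1.98%) and 30 of 2649 (1.13%). The HE1 counts rested in part on the libraries that share fragments. Without them 6 of 3286 loci, 13 of 7577 promoters and 34 of 2324 sites were found in HE1 only, and 11 loci, 14 promoters and 32 sites in HE2 only. The largest promoters were Ctc1 with 49 fragments in HE1 and Mief2 with 36 in HE2. Rgmb, a co-receptor for BMP ligands, was the largest gained locus with 11, 8, 0, 0 and 0 fragments, and Mafg, a partner of the blood factor NF-E2, had 7, 8, 0, 0 and 0. Men1, of the tumour suppressor menin, was the largest lost locus after Gapdh with 11, 5, 0, 0 and 0.

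Many of these features were missing from the Negative list of the other stage as well. Of the 76 sites found in HE1 positive sets only, 74 had no fragment in HE2 Negative sets either, and all 76 had one in HE1 Negative sets. Of the 30 found in HE2 positive sets only, all 30 were absent from HE1 Negative sets and 26 were present in HE2 Negative sets. Sites with at least 10 positive fragments that were listed in positive cells of both stages differed from this. Of these, 482 of 3767 HE1 sites were absent from HE2 Negative sets, and 38 of 2619 HE2 sites from HE1 Negative sets. This comparison, also for promoters and loci, set no upper limit on fragments, so the groups were not matched in number. For promoters 17 of the 19 lost and 13 of the 14 gained were absent from the other stage's Negative sets, against 514 of 9060 and 25 of 7862. For loci these were 13 of 17 and 6 of 9, against 354 of 4293 and 33 of 3538. Most of these features were listed in positive and Negative cells of their own stage and in no set of the other stage. Presence in HE1 Negative sets rests in part on libraries that share fragments with HE1 positive libraries. Without the libraries that share fragments, 34 sites were found in HE1 positive sets only, and all 34 were absent from HE2 Negative sets. Whether the pattern is more common than among features of similar fragment number was not tested.

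The cloned material held these sites at both stages. All 76 and all 30 sites had fragments in the plasmid list (pDONR) made from the other stage, such as 64 at the Vav1 site and 38 at the Gapdh site in the HE2 plasmids. The HE1 and HE2 plasmid lists hold 8828555 and 6366398 fragments. The share over all sites was not counted, so this is not shown to be particular to these sites. The sources used here do not say whether sorted lists were held against the open chromatin peaks of their own stage. Absence from a stage and removal by such a filter cannot be told apart.

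A pair of neighbouring sites over exons of Sox17, an endothelial transcription factor, ran opposite ways. The site at chr1:4492991-4493812 had 13, 9, 0, 0 and 0 fragments in HE1 positive sets, 7, 3, 0, 0 and 1 in HE1 Negative sets and none in HE2. The site at chr1:4491692-4492591, 399 bp away, had 9, 7, 3, 0 and 0 in HE2 positive sets, 4, 1, 0, 0 and 0 in HE2 Negative sets and none in HE1. The HE2 plasmid list held 87 and 92 fragments of these sites and the HE1 list 204 and 203. These sites and the largest ones over Auts2, Traf4, Adam11, Mafk and Chpf were among the 5 largest a direction outside chromosome 18. That chromosome holds a larger one of HE1. The sites were chosen by the values shown, so they carry no test. Although deposited as distal, the Auts2 site lies 0.154 kb from a transcription start of the annotation used here.

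**Figure D4:**
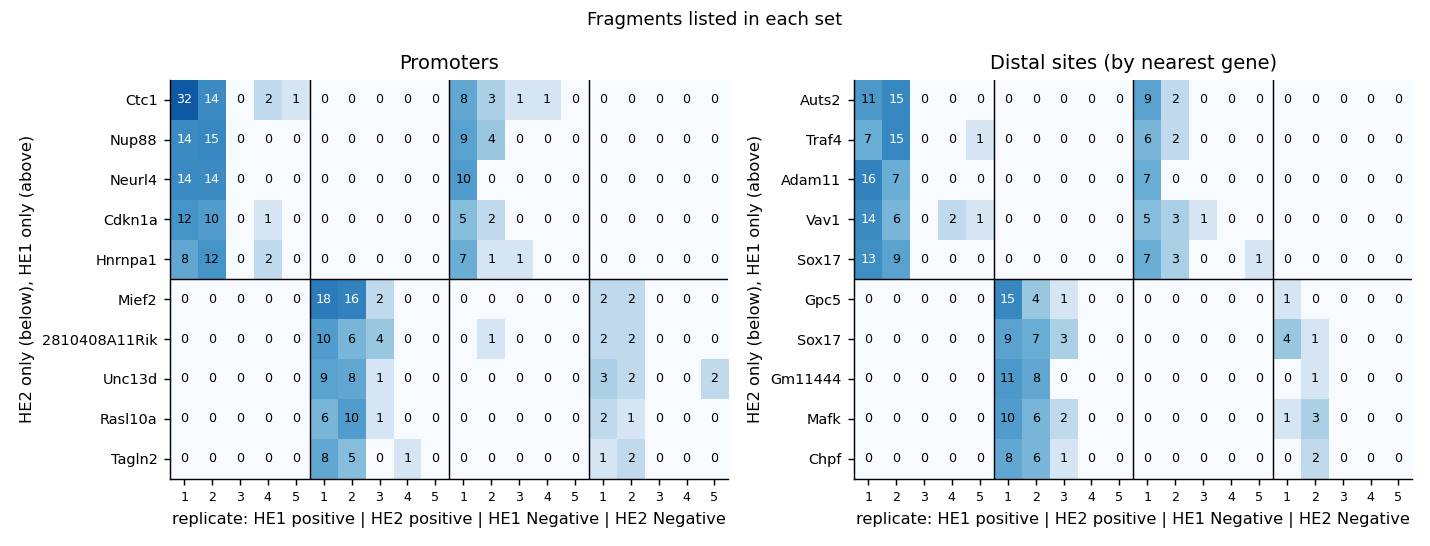
Number of fragments in each of the 20 sets for the 5 promoters (left) and 5 distal sites outside chromosome 18 (right) with most fragments in HE1 positive sets only (upper rows) and HE2 positive sets only (lower rows), darker for higher numbers. Fragments appear in positive and Negative sets of 1 stage, mostly in replicates 1 and 2, and the only entry of the other stage is 1 fragment of the 2810408A11Rik promoter in HE1 Negative cells.

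Chromosome 11 held 6 of the 19 promoters found in HE1 only (31.6%) and 7 of the 14 found in HE2 only (50.0%), against 9.69% and 10.1% of the promoters with at least 10 fragments in those stages. For sites the shares were 22.4% and 20.0%, against 15.3% and 15.7%, and for loci 17.6% and 11.1%, against 12.5% and 12.4%. This was noticed after the values were seen and was not tested.

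Motifs were counted in the middle 100 bp of distal fragments of at least 100 bp, as the percent of fragments with a match. None of the 13 motifs passed the test after adjustment, and 4 had an unadjusted exact p under 0.05. RUNX was found in 2.22%, 2.46%, 2.34%, 1.79% and 2.64% of HE1 positive fragments (2.29% ± 0.319, SD, n = 5) and in 2.79%, 2.89%, 2.71%, 2.54% and 3.37% of those of HE2 (2.86% ± 0.313). The ranges overlapped through 1 set, HE1 replicate 5, which lay above HE2 replicate 4 (exact p = 0.0159, adjusted over the motifs p = 0.103). With the High, Medium and Medium/High gates alone the RUNX difference was 0.45 instead of 0.57 points (exact p = 0.167). For fragments not listed in Negative cells of the stage it was 0.51 (exact p = 0.0556), and with each site counted once 0.79 (exact p = 0.0159). CEBP (TTGCNNCAA), bound by a family of myeloid factors, was found in 0.503% ± 0.147 of HE1 and 0.792% ± 0.207 of HE2 fragments (SD, n = 5, exact p = 0.0238, adjusted p = 0.103). Its difference was 0.40 instead of 0.29 points in the High, Medium and Medium/High gates (exact p = 0.0635). With each site counted once it was 0.23 (exact p = 0.135), and for fragments not listed in Negative cells 0.33 (exact p = 0.0159).

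KLF and RBPJ had lower means in HE2, and neither passed the adjustment. KLF was found in 5.35%, 5.26%, 5.66%, 6.22% and 6.0% of HE1 and in 4.99%, 5.04%, 5.17%, 5.25% and 4.94% of HE2 positive fragments. The stages did not overlap for KLF, which gave the smallest exact p that 5 sets against 5 allow, 0.00794 (adjusted p = 0.103). With the High, Medium and Medium/High gates alone the difference shrank from -0.62 to -0.24 percentage points (exact p = 0.270). RBPJ, the partner of Notch receptors in the nucleus, was found in 2.78% ± 0.236 and 2.47% ± 0.131 (SD, n = 5, exact p = 0.0317, adjusted p = 0.103), and without the 4 HE1 libraries that share fragments the difference was -0.11 instead of -0.31 points (exact p = 0.492). The GC content of the same windows was 55.3% and 55.2%.

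In Negative cells the corresponding values were 2.12% ± 0.539 and 2.29% ± 0.433 for RUNX (SD, n = 5, exact p = 0.651), 6.03% ± 1.23 and 5.34% ± 1.52 for KLF (exact p = 0.516), 0.449% ± 0.284 and 0.870% ± 0.324 for CEBP (exact p = 0.0794) and 2.97% ± 0.486 and 2.27% ± 0.670 for RBPJ (exact p = 0.0794). All 4 differences of means had the same sign as in positive cells. The difference between stages was not shown to differ between positive and Negative cells for any motif (exact test, adjusted p from 0.903 to 0.929; RUNX p = 0.198 before adjustment). AP-1, GATA, ETS, E-box and CRE, as well as TEAD (searched as GGAATG), SOX (searched as CCATTGT), OCT (searched as ATGCAAAT) and CTCF (searched as CNAGGGGGC), had exact p of 0.294 or more between positive sets. Some moved with the setting, with exact p not adjusted over the motifs. The CTCF difference was -0.51 instead of -0.22 points without the 4 HE1 libraries that share fragments (exact p = 0.0317). That of SOX was -0.59 instead of -0.15 points in the High, Medium and Medium/High gates (exact p = 0.0476). E-box was 2.24 points higher in HE2 with all sets (exact p = 0.294). Without HE2 replicate 4 the E-box difference was larger, in the same direction (exact p = 0.0238).

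**Figure D5:**
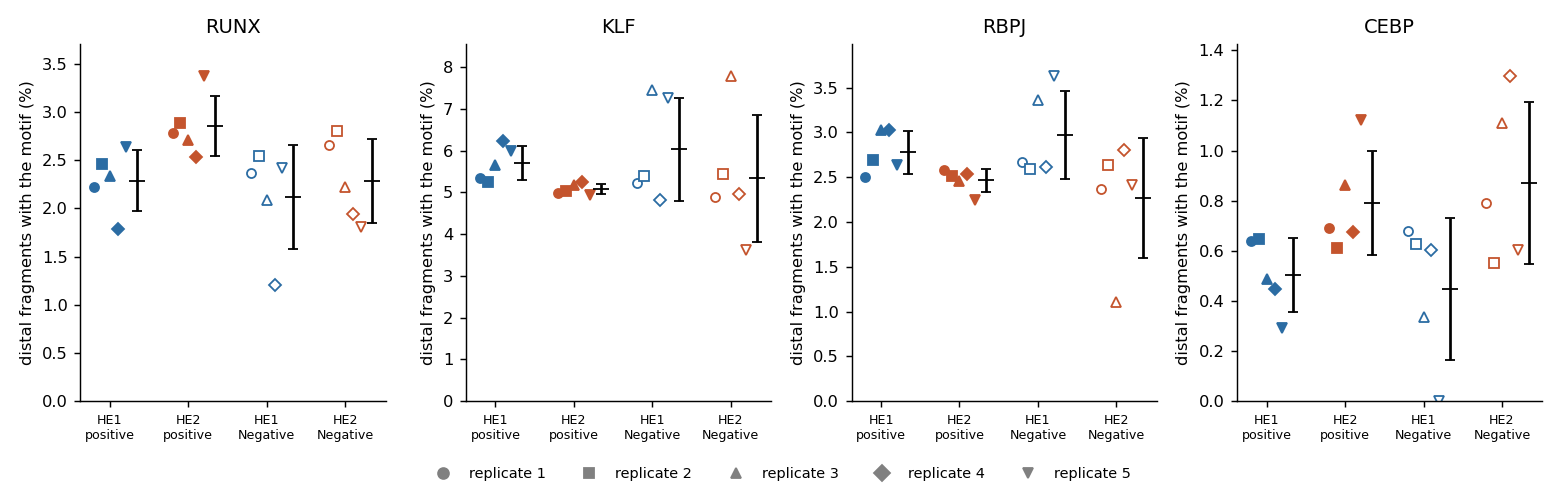
Percent of distal fragments with a RUNX, KLF, RBPJ or CEBP match in their middle 100 bp, for each set of HE1 and HE2 positive (filled) and Negative (open) cells, with the mean and SD over 5 replicates as bars. In positive cells HE2 lies above HE1 for RUNX, apart from 1 overlapping pair of sets, and below HE1 for KLF, while the Negative sets of the small replicates scatter widely.

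Lists of genes gave no called member between the positive sets. Of 36 endothelial genes 32 had a tested locus, 17 higher and 15 lower in HE2, with a median log2 difference of 0.03, against 0.01 over all 7219 loci. Of 40 blood genes 28 were tested, 17 higher and 11 lower (median 0.02), and of 25 AP-1 and TEAD pathway genes 18, 11 higher and 7 lower (median 0.03). Ets1, of an endothelial transcription factor, had 27, 22, 0, 0 and 0 distal fragments in HE1 and 42, 27, 3, 0 and 1 in HE2 (limma adjusted p = 0.999). Zfpm1, of the GATA cofactor FOG1, had 36, 45, 0, 1 and 0 against 46, 19, 7, 0 and 1, and Fosl2, of the AP-1 family, had 7, 7, 0, 3 and 0 against 1, 1, 0, 0 and 0 (limma adjusted p = 0.999). All endothelial loci together took up 0.256% ± 0.0853 of HE1 and 0.263% ± 0.0840 of HE2 positive fragments (SD, n = 5), and blood loci 0.154% ± 0.0612 and 0.227% ± 0.136.

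Genes of other cell types had no called member either. Of 25 mesoderm, cardiac and smooth muscle genes 19 had a tested locus, 9 higher and 10 lower in HE2 (median -0.03), and of 22 pluripotency genes 14, 9 higher and 5 lower (median 0.03). Pdgfra, a receptor of mesenchymal cells, had 5, 9, 5, 0 and 0 fragments in HE1 and 4, 1, 0, 0 and 0 in HE2 (limma adjusted p = 0.999), and was the one list member with an unadjusted p under 0.05 among loci. Among promoters the median log2 difference was 0.01 for endothelial and blood genes, -0.09 for AP-1 and TEAD genes (9 higher, 13 lower of 22), -0.02 for mesoderm genes and -0.01 for pluripotency genes, against -0.00 over all promoters. Batf3, an AP-1 family member, was the one with an unadjusted p under 0.05, with 2, 3, 0, 2 and 2 against 1, 2, 0, 0 and 0 fragments (limma adjusted p = 0.999).

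In the unpaired test, the positive lists of a stage did not resemble each other detectably more than those of the other stage. Shared sites exceeded the number expected for unrelated lists by 0.90 on the log2 scale between sets of the same stage and by 0.83 between sets of different stages, with pairs of different replicate number used (exact two-sided permutation test of the difference, p = 0.587). For promoters the values were 0.28 and 0.27 (exact p = 0.881). With sets of the same number paired, the exact test gave p = 0.0625 for sites, the smallest p it can give. The same differences in Negative cells were 0.0024 for sites and -0.023 for promoters (exact p = 1 and 0.770). In the 2 large sets of each stage, drawn at 11489 distal fragments, 38.9% and 39.3% of sites were shared within HE1 and within HE2, and 36.5% to 36.9% between the stages. The pairs within a stage also held more identical fragments, 19.8% and 22.8% of the smaller set against 7.64% to 16.8%, and the part of these in the shared sites was not tested. In Negative cells drawn at the same number the order was not the same, with 40.7% and 38.3% within and 37.0% to 43.8% between the stages. For gene loci the within-stage values were 63.2% and 63.5%, and those between stages 61.9% to 62.2%, against 64.2%, 62.4% and 62.0% to 65.5% in Negative cells.

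Most loci and promoters were reached at both stages when the 5 sets were united and drawn at equal numbers. At 111298 distal fragments a stage, 8975 loci were expected in both, 981 in HE1 only and 1119 in HE2 only, so 89.5% were shared. At 209980 promoter fragments 12446 promoters were expected in both, 399 in HE1 only and 513 in HE2 only, or 96.5% shared. Negative lists, drawn at 24714 distal fragments, shared 75.5% of loci, and positive lists drawn at that number shared 75.0%. For promoters at the Negative number these were 88.0% in Negative and 88.2% in positive cells, and for sites 52.1% and 50.5%.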

How the data were processed

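Per the labels and methods, the authors trimmed reads with Trim Galore, mapped them to mm10 with Bowtie2, kept pairs of mapping quality 40 or more, removed duplicates and fragments seen in HM-1 cells without a library, kept fragments found in the plasmids and in open chromatin peaks, and split them at 1.5 kb from a transcription start. SAMtools, bedtools and HOMER are also named in the submitters' processing notes. The sorted lists were deposited as intervals without counts, scores or any other value, so each fragment entered once, and fragments lost or kept by chance in PCR weigh the same as others. The unit here is therefore the interval itself (another unit than reads). It is not stated there whether peaks of the own stage were used. The methods divide by all fragments to set an activity state per site, which the deposited lists do not carry.

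Starts of the sorted lists count from 1, and plasmid starts were moved by 1 bp to match, after which 81.1% of 727579 distinct fragments (250900 distal, 476679 promoter) were identical to a plasmid fragment. On other sequences 594 listed fragments were left out. Genes were the 21840 protein-coding genes of GENCODE M21 (GRCm38). Of distal fragments 88.1% lay within 100 kb and of promoter fragments 97.7% within 2 kb of a start. Fragments were 68 to 600 bp long.

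Sets were united per stage and replicate as the labels give them. Features were tested where 4 or more of the compared sets listed them (2 or more with replicates 1 and 2 only), with limma 3.58.1 (R 4.3.3, lmFit and trended eBayes). The values were fragments per 10000 of the set plus 1, as log2, with Benjamini-Hochberg adjustment over all features tested, at 0.05. Numbers at equal fragment counts are exact expectations without replacement. Other comparisons used exact two-sided permutation tests over the 252 splits of 5 against 5 sets (Python 3.11.15, numpy 2.4.6, scipy 1.17.1). In the exact tests, stage differences of positive and Negative cells were compared through the differences within a replicate. The main limma fits of this comparison had no replicate term. Positive and Negative sets of the same replicate thus counted as independent there, although some of them share fragments. Shared features were compared as log2 of observed over expected with 0.5 added to both. The steps were tested on simulated data.

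The members, gene lists, motifs and tests were chosen with earlier results of these data known. Named genes were those called, otherwise the 5 with the smallest p a direction, the 3 with the smallest p of each list, those listed in most sets of 1 stage and none of the other, and 7 lineage genes. Sites on chromosome 18 and 1 promoter that the rule names are not reported here. Alternatives were voom weights, no filter, 0.25 added, equal draws, other gates, replicates 1 and 2 only, the replicate number as a block, 50 kb loci, fragments not listed in Negative cells, plasmid-identical fragments, and leaving out each set or the libraries that share fragments. After the data were seen, voom with the block and replicates 1 and 2 without those libraries were added.

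Replicate numbers are shared by both stages in the labels. Sets that share a number deviated together from the means of their groups. The correlations were 0.20 to 0.53 over Negative loci, 0.20 to 0.48 over Negative promoters and 0.25 to 0.64 over Negative sites. All lay above 0.1, the limit set for treating the numbers as pairs. Sets of different number were not correlated in this way. Sets of the same number were also alike in being large or small, and the part of set size was not tested. Whether the numbers pair the Negative sets is therefore not shown. The block called 0 in the Negative sets as well.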

Additional observations from a re-analysis of the deposited data

Results flagged for a closer look

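In 92 groups of 5 sets, 15 held a set far from the other 4 by Dixon's test, of which chance gives about 1 in 20. Of these, 7 were replicate 4 of the positive cells.

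HE1 positive replicate 4 was expected to reach 389.9 loci at equal numbers (the others 414 to 422), and at the number of the smallest of the 20 sets 189.2 sites (196 to 198) and 469.4 promoters (485 to 491). HE2 positive replicate 4 reached 445.5 sites at equal numbers (484 to 493) and 863.4 promoters (944 to 956), and at the smallest number 189.8 sites (196 to 198) and 464.0 promoters (488 to 490). The HE1 set is the one with 28.7% plasmid-identical fragments, and its Low library shares fragments with those of HE2 replicate 4. The part of this in the low values was not tested.

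Among Negative sets, replicate 3 stood apart in both stages. The distal share was 22.1% in HE1 (the others 31.9% to 34.3%) and 27.8% in HE2 (32.8% to 33.8%), and the plasmid-identical share was 13.6% (71.1% to 84.8%) and 45.6% (76.4% to 85.4%). The RBPJ motif was found in 1.11% of the distal fragments of HE2 Negative replicate 3 (2.37% to 2.81%).

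The other sets were of replicate 5. The CRE motif was found in 0.878% of fragments of HE1 positive replicate 5 (0.390% to 0.520%). HE2 positive replicate 5 reached 178.8 loci at the number of the smallest of the 20 sets (172 to 173), and HE2 Negative replicate 5 reached 161.2 loci within 50 kb (145 to 149).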

How the results depend on the processing

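The counts of called loci, promoters and sites were 0 under most alternatives. Replicates 1 and 2 alone called 10 promoters. Without the HE1 libraries that share fragments they called 9, and 3 sites, of which 1 near Gm11444 was higher and 1 near Sox17 lower, each with no fragment in the other stage. Voom with the replicate block called 1, Ctc1, which had no HE2 fragment. Without the filter on low values, 10 positive sites and 1 Negative site were called. Leaving out a set gave 0 to 1 called positive sites, with 1 lower near Phf19 without HE1 replicate 4 (adjusted p = 0.00163), 1 higher near Clec11a without HE2 replicate 4 (adjusted p = 1.8e-06) and 1 higher near Zmiz2 without HE2 replicate 5 (adjusted p = 0.00672). The cause was not tested. Although deposited as distal, the Zmiz2 site lies 0.0 kb from a transcription start of the annotation used here.

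The replicate block, which pairs sets of the same number, called 0 loci, promoters and sites in limma. With it the distal share difference of 1.29 points had p = 0.188, sites 0.375, loci 0.125, promoters 1, shared sites 0.0625 and shared promoters 0.562 (exact tests, smallest p 0.0625). Among positive sets the correlations were 0.16 to 0.26 in replicates 1, 2, 4 and 5. In replicate 3 they were 0.007 to 0.022, under 0.1. Sets of different number were not compared in this way, so pairing of the positive sets is not shown either. The unpaired tests above leave any such pairing out of account.

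Signs of differences within the spread changed. The distal share was -0.37 points in High and Medium gates and ranged from -0.614 to 2.71 when a set was left out. Promoters at equal numbers differed by 27.2 without the 4 libraries, 0.417 for fragments not listed in Negative cells and 5.09 in High and Medium gates, and by -13.6 to 17.3 when a set was left out. Sites ranged from -6.25 to 11.4 and shared promoters from -0.00886 to 0.0336. In replicates 1 and 2 the Socs3 locus turned to -0.00054 and the Mapk9 promoter to -0.34. Of 329 settings of 21 named features, 325 kept direction and call. Apart from the Runx1 locus these features were chosen by their small p in the same sets, and none was called in the main fit. The settings refit the same data, so this count is no independent check. The loci and promoters of the other lineage genes are not among the 21 features, and their turned directions stand above. In the small sets 1 fragment outweighs most differences seen, which limits what the 5 replicates can show.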
